A study of Homo sapiens with 6 samples.

Results

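Endothelial marker genes are genes by which the cells lining blood vessels and the inner heart wall are recognised, and 10 of them were followed here: PECAM1, CDH5, KDR, TEK, TIE1, VWF, EGFL7, ERG, ENG and PLVAP. They were taken by symbol from the 35793 genes of the deposited table, and all 10 were listed there. RNA was measured in cardiomyocytes differentiated from human induced pluripotent stem cells of the line WTC11. One genotype was unedited WTC11 (wild type). The other was an STK25 homozygous knockout made with CRISPR/Cas9 in the same background, without further treatment in either. Each genotype had 3 biological replicates, collected on day 15 of differentiation, which gave 6 libraries. The knockout was 1 derived line, so the edit and any other difference between the lines cannot be told apart. Values are normalized counts, which are reads per gene divided by 1 factor per library.

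In an endothelial cell the 10 products work in 4 places. KDR (VEGF receptor 2) and TEK (TIE2) are receptor tyrosine kinases for vascular endothelial growth factors and angiopoietins, TIE1 is an orphan partner of TEK, and ENG (endoglin) is a co-receptor for BMP9, BMP10 and TGF-beta ligands. CDH5 (VE-cadherin) and PECAM1 (CD31) hold neighbouring cells together, and PLVAP builds the diaphragms of fenestrae and caveolae. VWF (von Willebrand factor) is stored and secreted for platelet adhesion, EGFL7 is a secreted matrix protein whose gene hosts the microRNA gene MIR126, and ERG is an ETS-family transcription factor that maintains endothelial identity. Several are also made elsewhere: KDR marks early cardiac mesoderm, and ENG is found on stromal cells. In bulk RNA, fewer cells of a type and less RNA per cell cannot be told apart.

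Promoter sequences were compared first for 3 receptors and 1 regulator, because TEK and TIE1 encode paired receptors of which 1 was read in every library and the other almost nowhere, and because ERG recognises the ETS core GGAA. Each window holds 250 bases before and 50 bases after a RefSeq transcript start in GRCh38.p14, 5′ to 3′ on the gene's strand, and capitals mark GGAA or its reverse complement TTCC. The windows are chr4:55125546-55125845 (minus strand, KDR), chr9:27108975-27109274 (plus strand, TEK), chr1:43300732-43301031 (plus strand, TIE1) and chr21:38660618-38660917 (minus strand, ERG).
KDR: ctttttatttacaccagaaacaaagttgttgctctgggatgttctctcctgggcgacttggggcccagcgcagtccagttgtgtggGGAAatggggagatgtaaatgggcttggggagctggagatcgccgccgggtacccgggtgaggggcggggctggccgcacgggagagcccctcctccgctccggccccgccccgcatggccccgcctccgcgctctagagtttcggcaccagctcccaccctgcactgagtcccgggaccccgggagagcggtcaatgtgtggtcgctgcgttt
TEK: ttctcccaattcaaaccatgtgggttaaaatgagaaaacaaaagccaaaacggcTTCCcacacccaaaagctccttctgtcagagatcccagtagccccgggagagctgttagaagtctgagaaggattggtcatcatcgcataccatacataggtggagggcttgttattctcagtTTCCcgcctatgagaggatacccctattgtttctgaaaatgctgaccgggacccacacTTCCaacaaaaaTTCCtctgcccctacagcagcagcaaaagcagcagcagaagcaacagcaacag
TIE1: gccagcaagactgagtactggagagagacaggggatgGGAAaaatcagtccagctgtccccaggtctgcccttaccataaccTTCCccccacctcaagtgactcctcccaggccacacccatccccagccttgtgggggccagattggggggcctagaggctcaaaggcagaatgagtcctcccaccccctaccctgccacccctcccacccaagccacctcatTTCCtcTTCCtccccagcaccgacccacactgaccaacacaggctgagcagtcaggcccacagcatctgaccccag
ERG: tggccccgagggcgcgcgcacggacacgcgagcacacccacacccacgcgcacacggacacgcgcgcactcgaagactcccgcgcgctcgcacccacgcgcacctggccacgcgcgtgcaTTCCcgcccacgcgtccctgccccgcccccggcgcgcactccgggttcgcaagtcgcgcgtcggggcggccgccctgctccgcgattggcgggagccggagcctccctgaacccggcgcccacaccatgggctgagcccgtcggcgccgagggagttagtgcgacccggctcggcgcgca
The KDR window held 1 GGAA core, TEK 4, TIE1 4 and ERG 1. Over 34796 promoter windows of this length the median was 3 and 95.5% held at least 1, so the motif was near universal. CpG dinucleotides differed more: 22 in KDR, 5 in TEK, 1 in TIE1 and 53 in ERG, against a median of 14. The ERG window had more CpG than 99.4% of all windows, and TIE1 more than 3.97%. The windows shown are those of the outermost start of each gene, and other starts differed: 3 further ERG starts had 4 CpG each and from 2 to 6 GGAA cores, and a further TEK start had 3 CpG and 7 GGAA cores. Neither feature separated the members that were read from those that were not: EGFL7, the most abundant, had 15 CpG at its outermost start, ENG 8 and PLVAP 17. A match to these letters is a description and not a binding site. The promoters of PECAM1, CDH5 and VWF are not shown here.

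The levels of the 10 genes ran from abundant to nearly silent. To compare genes, levels were divided by the length of 1 reference transcript (GENCODE 29), giving normalized counts per kb. EGFL7 had 522 per kb over the 6 libraries, ENG 67.2, KDR 48.9, TEK 10.9 and PECAM1 5.41. PLVAP had 1.34 per kb, VWF 0.142, TIE1 0.0875, CDH5 0.0758 and ERG 0.0752. EGFL7 stood above 81.5% of the 23279 genes with a read and a length, and KDR above 53.8%. CDH5 and ERG stood above 0.778% and 0.765% of them. EGFL7 exceeded ENG in 6 of 6 libraries, with no overlap of their ranges per kb. Every other pair of neighbours in this order overlapped in range, although KDR exceeded TEK in 6 of 6 libraries. For scale, the cardiomyocyte gene TNNT2, which encodes cardiac troponin T, had 201260 normalized counts per kb.

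**Figure D1:**
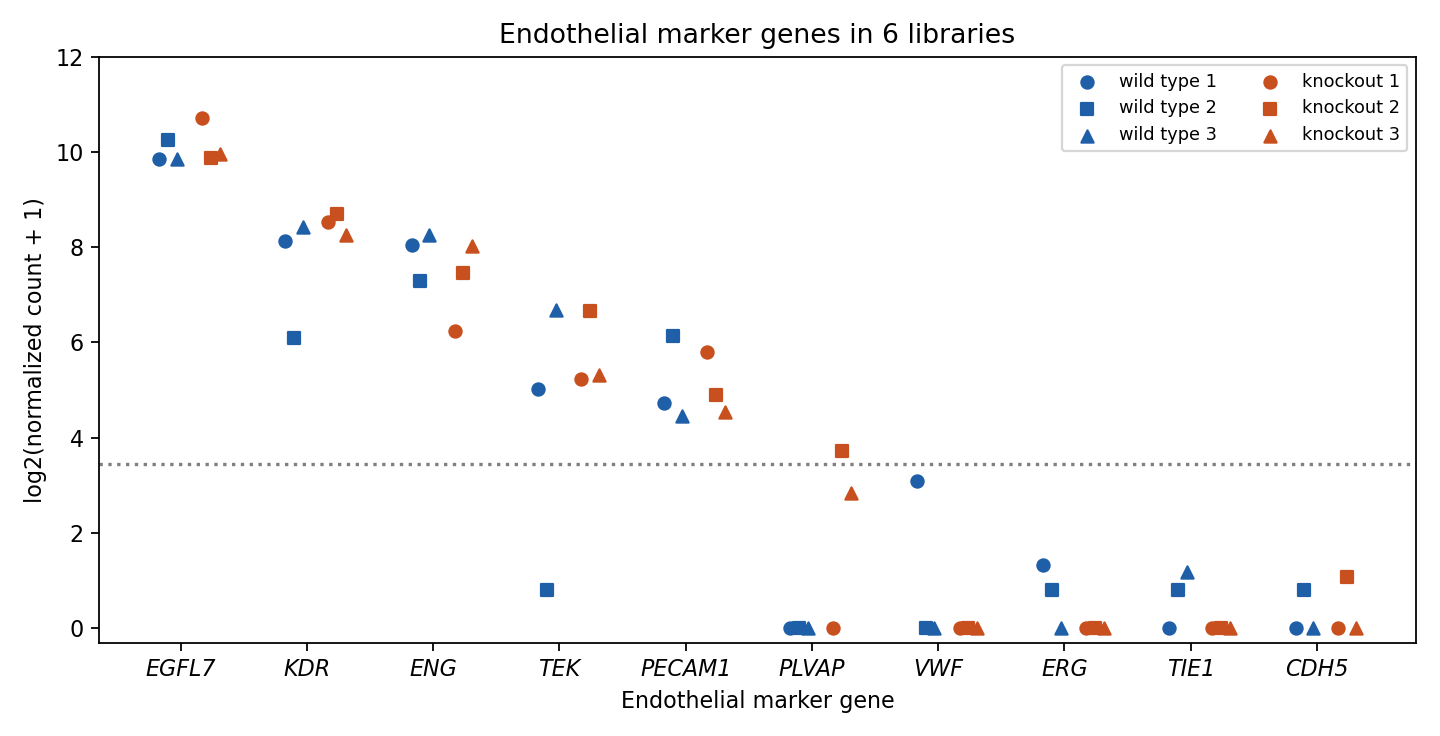
Normalized counts of the 10 endothelial marker genes as log2(value + 1), with 1 point per library, blue for the wild type and orange for the knockout, and marker shape for the replicate. The dotted line marks 10 normalized counts. EGFL7, KDR, ENG and PECAM1 lie above it in all 6 libraries, TEK falls below it in wild-type replicate 2, and CDH5, TIE1, ERG and VWF lie below it in every library.

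A set of 3 members, CDH5, TIE1 and ERG, was at or near 0 in both genotypes. CDH5, the adhesion molecule of endothelial adherens junctions (chromosome 16, 66366622 to 66404786, plus strand), had 1 read in wild-type replicate 2, 1 read in knockout replicate 2 and 0 in the other 4 libraries. TIE1 (chromosome 1, 43300993 to 43323108, plus strand) had 1 read in wild-type replicate 2, 2 in wild-type replicate 3 and 0 in the 3 knockout libraries. ERG (chromosome 21, 38380027 to 38661780, minus strand) had 1 read in each of wild-type replicates 1 and 2 and 0 elsewhere. These 3 genes thus stayed at or under 3 reads in all 6 libraries, and no fold is given for them here. A count of 0 allows up to 3 reads, which is an RPM (reads scaled to the total of the library) of 0.134 in the shallowest library and 0.0564 in the deepest.

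VWF (chromosome 12, 5948874 to 6124770, minus strand) was read in 1 library, wild-type replicate 1, with 5 reads or 7.55 normalized counts. That library was the shallowest. PLVAP (chromosome 19, 17351448 to 17377350, minus strand) went the other way, with 11 reads in knockout replicate 2, 7 in knockout replicate 3 and 0 in knockout replicate 1 and all wild-type libraries. Its exact Poisson interval (95%, counting error only) was 5.49 to 19.7 reads in knockout replicate 2 and 2.81 to 14.4 in knockout replicate 3. As RPM these intervals began at 0.157 and 0.0600, under the upper bound of 0.164 for 0 reads in wild-type replicate 1. The lower bound in knockout replicate 2 lay above the upper bounds of 0.0719 and 0.0693 in wild-type replicates 2 and 3. The genotypes overlapped at 0, so the difference did not separate them. None of these 5 genes reached the mean of 10 normalized counts needed for testing. When the filter was dropped, PLVAP had an unadjusted p of 0.0404 and an adjusted p of 0.222, and the other 4 had adjusted p-values from 0.491 to 0.939 (limma, Benjamini-Hochberg). Summed over the 5 genes, the libraries held 6, 3 and 2 reads in the wild type and 0, 12 and 7 in the knockout.

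The other 5 members, EGFL7, KDR, ENG, TEK and PECAM1, were present in both genotypes and were tested. None of the 5 passed the threshold: 0 were higher and 0 lower at an adjusted p under 0.05, and 0 had an unadjusted p under 0.05, which 27.5% of all genes had (limma on log2(value + 1), adjusted over 15536 genes). Over all tested genes 12.8% were called, 5.97% higher and 6.79% lower. edgeR and DESeq2 on recovered reads also called 0 of 5, where they called 12% and 20.7% of all genes. In 0 of the 5 did the genotypes separate, against 33.4% of all tested genes. The median log2 fold change (knockout minus wild type) of the 5 was 0.20, beside 0.0052 over all tested genes. Leaving out wild-type replicate 2 and knockout replicate 1 together, the libraries that stood apart on the second principal component, still gave 0 calls among the 5. In that fit 28.9% of all tested genes were called. With 3 against 3 samples the smallest p of an exact two-sided permutation test is 0.1.

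EGFL7 (ENSG00000172889.15, chromosome 9, 136658856 to 136672678, plus strand) made up from 54.4% to 80.4% of the normalized counts of the 10 genes in a library. It had 918, 1217 and 916 normalized counts in the wild type and 1679, 934 and 996 in the knockout. Knockout replicate 1 was the highest of the 6 and wild-type replicate 2 the next, while the remaining 4 lay close together. The means were 1017 ± 173 and 1203 ± 413 (SD, n = 3 per genotype). The fitted log2 change was 0.20, with an SE of 0.28 and a 95% interval of -0.44 to 0.85, the narrowest of the 5 (limma adjusted p = 0.703). Without knockout replicate 1 the value was -0.063, and with libraries scaled to equal totals -0.078.

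KDR, the main signalling receptor for VEGF-A (ENSG00000128052.9, chromosome 4, 55078259 to 55125595, minus strand), had 278, 67.8 and 342 normalized counts in the wild type and 369, 415 and 306 in the knockout. Wild-type replicate 2 alone was low, and the other 5 libraries lay between 278 and 415. The means were 229 ± 143 and 363 ± 54.7 (SD, n = 3 per genotype). The fitted log2 change was 0.95, with an SE of 0.58 and a 95% interval of -0.40 to 2.29 (limma adjusted p = 0.345). Without wild-type replicate 2 it was 0.22 (limma adjusted p = 0.635), so that 1 library carried most of the difference. Its 89 reads, or an RPM of 1.73 with an exact Poisson interval of 1.39 to 2.13, lay under the RPM of 8.20 in wild-type replicate 1 by more than counting error.

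TEK, the angiopoietin receptor (ENSG00000120156.20, chromosome 9, 27109141 to 27230175, plus strand), was the most variable member. It had 31.7, 0.762 and 102 normalized counts in the wild type and 36.9, 100.3 and 39.1 in the knockout. Wild-type replicate 2 held 1 read (exact Poisson interval 0.0253 to 5.57) and wild-type replicate 3 held 160, at similar depth. Across the knockout the highest library was 2.72 times the lowest. The means were 44.8 ± 51.9 and 58.8 ± 36.0 (SD, n = 3 per genotype). The log2 fold change of 1.56 had an SE of 1.37 and a 95% interval of -1.60 to 4.73 (limma adjusted p = 0.519). That SE was larger than those of 98.5% of tested genes. Without wild-type replicate 2 the value was -0.12. It was also smaller on recovered reads, at 0.37 with edgeR and 0.39 with DESeq2, and with a pseudocount of 10, at 0.78.

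ENG, the co-receptor (ENSG00000106991.13, chromosome 9, 127815012 to 127854756, minus strand), was the member with the lowest fitted value. The wild type had 264, 156 and 303 normalized counts and the knockout 75.0, 174 and 261. Knockout replicate 1 was the lowest and wild-type replicate 2 the next. The means were 241 ± 76.1 and 170 ± 93.2 (SD, n = 3 per genotype). The fitted log2 change was -0.62, with an SE of 0.50 and a 95% interval of -1.78 to 0.54 (limma adjusted p = 0.480), and -0.12 without knockout replicate 1. An antisense gene, AL162586.1, overlaps its exons in GENCODE 29. Whether reads were assigned by strand is not given in the sources used here.

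PECAM1, a homophilic adhesion receptor (ENSG00000261371.5, chromosome 17, 64319415 to 64413776, minus strand), was low but read in every library. It had 25.7, 69.3 and 21.1 normalized counts in the wild type and 54.7, 28.98 and 22.2 in the knockout. The 2 high libraries were wild-type replicate 2 and knockout replicate 1, 1 in each genotype. The fitted log2 change was -0.031, with an SE of 0.62 and a 95% interval of -1.47 to 1.41 (limma adjusted p = 0.983).

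**Figure D2:**
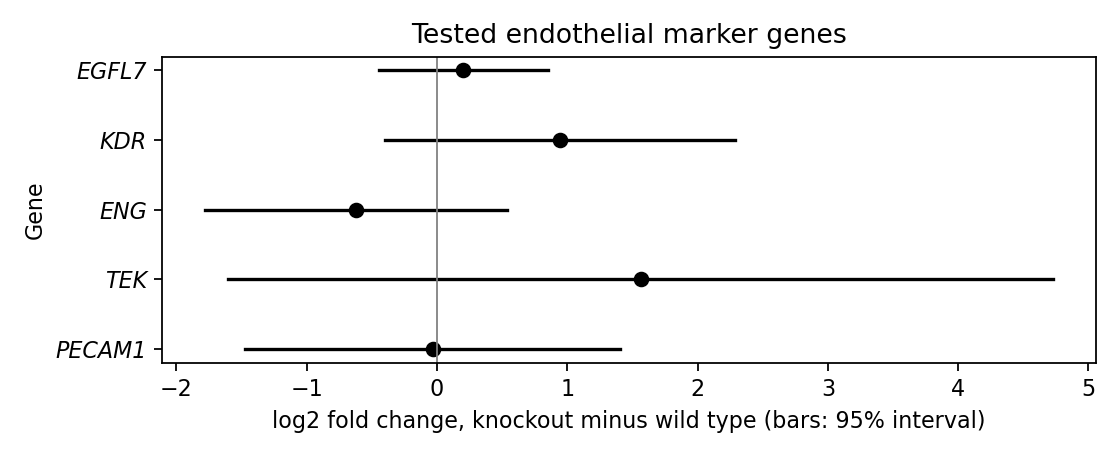
Log2 fold change (knockout minus wild type) of the 5 tested members, as points with 95% intervals from limma, from 3 against 3 libraries. All 5 intervals include 0, and that of TEK is the widest, from -1.60 to 4.73.

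Libraries of 1 genotype differed from each other in all 5 tested members. Wild-type replicate 2 and knockout replicate 1 were the highest 2 libraries for EGFL7 and PECAM1 and the lowest 2 for ENG. The deviations of these 2 libraries from their genotype means, on the log2 scale, were 1.02 and 0.72 for PECAM1, 0.27 and 0.53 for EGFL7, and -0.57 and -0.996 for ENG. TEK was also lowest within each genotype in these 2 libraries, at -3.36 and -0.50, although knockout replicate 3 was close at -0.42. KDR did not follow this pattern: wild-type replicate 2 deviated by -1.45 and knockout replicate 1 by 0.033. Over all tested genes the second principal component (24.1% of the variance) also set these 2 libraries against the other 4. Summed stromal and fibroblast marker levels were lowest within each genotype in the same 2 libraries, at 12981 normalized counts where the other wild-type libraries had 21263 and 26550, and at 8414 where the other knockout libraries had 16844 and 13674. The genes of this list differed: COL1A1, COL1A2 and COL3A1 were lowest in these 2 libraries within each genotype, whereas TCF21 (57.1 and 543 normalized counts) and THY1 (31.2 and 208) were highest there. Summed cardiomyocyte marker levels were highest within each genotype in the same 2 libraries, at 1690980 and 3522360. Much of these sums was MYL7, at 739950 and 2324410. The genes of this list also differed. MYL7, TNNT2, TNNI1 and TNNC1 were highest in these 2 libraries within each genotype, whereas ACTN2, MYH6 and MYH7 were lowest there. The part of stromal cells or cardiomyocytes in the members' values was not tested.

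**Figure D3:**
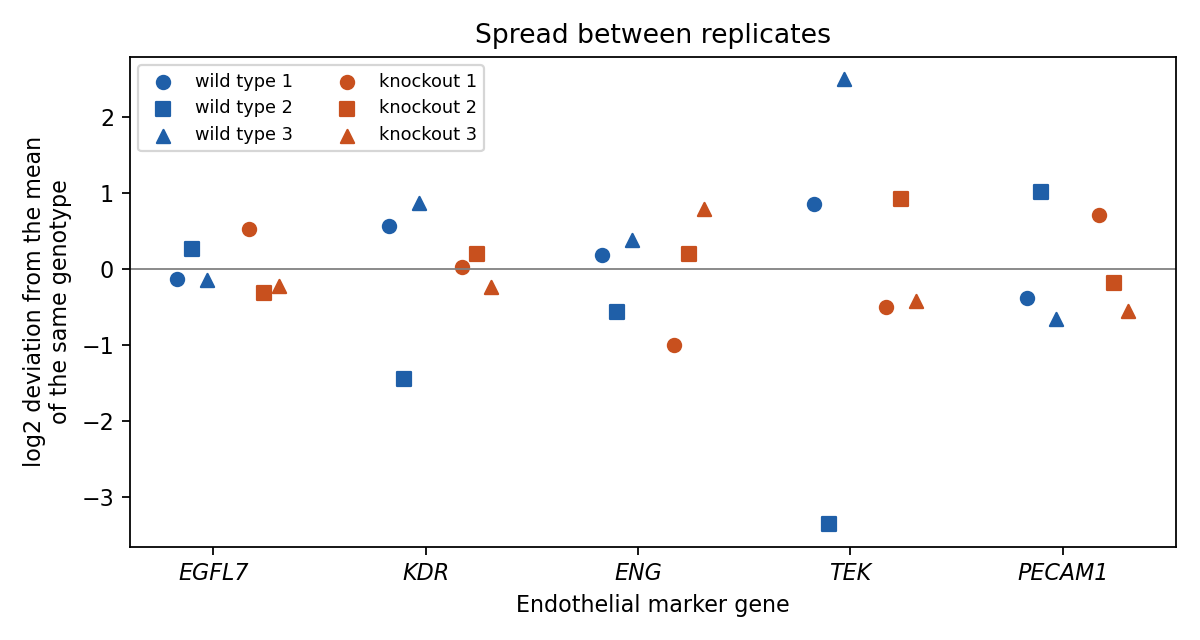
Deviation of each library from the mean of its own genotype, as log2(value + 1), for the 5 tested members, with 1 point per library. Wild-type replicate 2 lies at -3.36 for TEK and -1.45 for KDR but at 1.02 for PECAM1.

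The genes most like each member across the 6 libraries were found by the root mean square difference of centred log2 values among 15535 other tested genes, for the 4 members with a mean of at least 50. For EGFL7 they were EIF6 (0.056), GPATCH2 (0.059) and MRTO4 (0.064). For ENG they were KDM7A (0.13), NPIPB14P (0.15) and FBXL6 (0.16), and for KDR they were GPLD1 (0.22), MKX (0.23) and C6orf223 (0.24). TEK had no such close match, with BEND3P3 at 0.48, ZSCAN20 at 0.50 and PFN1P2 at 0.52. Closeness to EGFL7 was widely shared: 2325 of the 15535 genes lay within 0.3 of it, against 255 for ENG, 8 for KDR and 0 for TEK. Among the 5 members the closest pair was PECAM1 and EGFL7 (0.43) and the most distant PECAM1 and TEK (2.49). No member was among the 3 nearest genes of another.

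A further 22 endothelial genes also held silent and abundant genes. MMRN1, CLEC14A, ESM1, ADGRL4, SELE and LYVE1 had 0 reads in all 6 libraries, and ROBO4 had 1 read in 1 library. Of the 22 genes 10 were tested, 1 rose and 1 fell (20.0% against 12.8% of all tested genes). ESAM, a junctional adhesion molecule of endothelium and platelets, rose from 16.6, 5.33 and 18.5 to 754, 614 and 769 normalized counts. Every knockout library lay far above every wild-type one (limma log2 change 5.78, standard error 0.49, adjusted p = 0.000496). NOS3, the endothelial nitric oxide synthase, fell from 194 ± 36.4 to 46.8 ± 19.6 (SD, n = 3 per genotype; limma log2 change -2.09, standard error 0.41, adjusted p = 0.0158). Leaving out wild-type replicate 1 (adjusted p = 0.0753 with limma), wild-type replicate 3 (0.0771) or knockout replicate 3 (0.0539) ended the NOS3 call. S1PR1, the sphingosine-1-phosphate receptor, was the most abundant of these genes, with 4279 ± 1438 and 2233 ± 979 (SD, n = 3 per genotype). Its limma log2 change was -0.996 (adjusted p = 0.171), and no fit leaving out 1 library called it. It passed with wild-type replicate 2 and knockout replicate 1 left out (limma adjusted p = 0.00343). That fit was chosen after seeing the data, and 28.9% of all tested genes were called in it.

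Around the receptors, a pair of ligands and a co-receptor passed the test, while KDR and TEK did not; the difference between ligand and receptor changes was not tested. ANGPT1, the agonist ligand of TEK, fell from 2007, 1718 and 2117 normalized counts to 91.5, 59.1 and 133. No knockout library came near the wild-type range (limma log2 change -4.42, standard error 0.33, adjusted p = 0.000293). It was the 1 called gene among 7 tested in the angiopoietin and TIE group (14.3%, near the 12.8% of all tested genes). ANGPT2 had at most 10.7 normalized counts in any library. Among 8 tested VEGF ligands and receptors 1 rose and 1 fell (25% against 12.8% of all tested genes). VEGFC, a ligand of FLT4 and KDR, rose from 77.0, 45.7 and 40.8 to 505, 513 and 475 normalized counts (limma log2 change 3.22, standard error 0.33, adjusted p = 0.00118). NRP2, a co-receptor for VEGF-C and semaphorins, fell from 2906 ± 629 to 742 ± 136 (SD, n = 3 per genotype; limma log2 change -1.96, standard error 0.24, adjusted p = 0.00256). These 3 calls held in each of the 6 fits that left out 1 library. VEGFA, the main ligand of KDR, had 3432 ± 316 and 3771 ± 507 (SD, n = 3 per genotype). FLT1, the VEGF receptor 1, had a log2 fold change of -0.67 (limma adjusted p = 0.298) and NRP1 of 0.83 (limma adjusted p = 0.173), and both passed with wild-type replicate 2 and knockout replicate 1 left out (limma adjusted p = 0.0334 and 0.00634). Without these 2 libraries the VEGF group had 3 higher and 2 lower genes and the angiopoietin group 1 higher and 3 lower, where 28.9% of all tested genes were called.

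**Figure D4:**
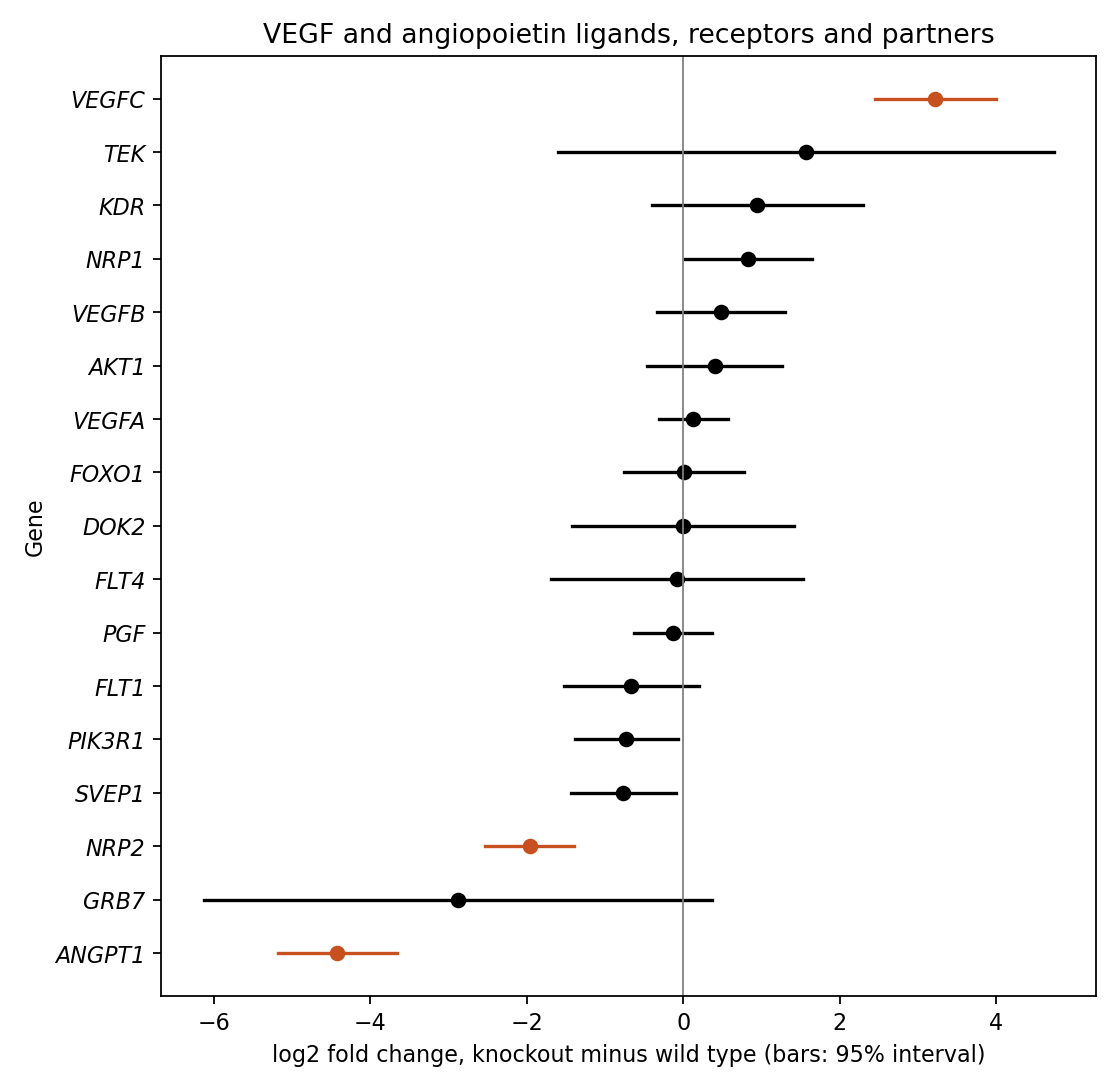
Log2 fold change (knockout minus wild type) with 95% intervals from limma for tested VEGF and angiopoietin pathway genes, with KDR and TEK among them. Orange marks an adjusted p under 0.05. VEGFC at 3.22, NRP2 at -1.96 and ANGPT1 at -4.42 passed, and the intervals of KDR and TEK include 0.

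In the pathway of ENG, 0 of 18 tested genes passed, where 12.8% of all genes did (limma). With equal totals 1 fell (12.9% of all genes were called), and with wild-type replicate 2 and knockout replicate 1 left out 2 were higher and 2 lower (28.9%). At an unadjusted p under 0.05 limma gave 2 of the 18, against 27.5% of all genes, and adjusted calls numbered 0 with edgeR and 1 with DESeq2. ACVRL1, the ALK1 receptor that pairs with ENG in endothelium, had at most 3.81 normalized counts. Its ligands BMP10 and GDF2 were read in all 6 libraries, from 17.5 to 202 and from 150.0 to 428 normalized counts. Of 10 cytoplasmic and membrane partners of endothelial junctions 1 passed (10%): F11R, the junctional adhesion molecule JAM-A, fell from 2119 ± 404 to 478 ± 93.0 (SD, n = 3 per genotype; limma log2 change -2.15, standard error 0.24, adjusted p = 0.00176). The beta-catenin gene CTNNB1, whose product binds VE-cadherin, had 8887 ± 3273 and 8002 ± 2620 (SD, n = 3 per genotype).

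Of 19 further transcription factors of endothelial cells 13 were tested, 3 rose and 0 fell (23.1% against 12.8%), while DESeq2 called 6 (20.7% of all genes). NR2F2, which specifies venous endothelium and atrial muscle, rose from 36.2 ± 28.6 normalized counts to 407 ± 214 (SD, n = 3 per genotype; limma log2 change 3.59, standard error 0.59, adjusted p = 0.00818). ETS1, an ETS factor related to ERG, rose from 16.6, 17.5 and 15.3 to 117, 86.9 and 128 (limma log2 change 2.66, standard error 0.41, adjusted p = 0.00599). LMO2, a scaffold of blood and endothelial regulators, rose from 132 ± 44.2 to 360 ± 21.2 (SD, n = 3 per genotype; limma log2 change 1.49, standard error 0.32, adjusted p = 0.0213). The LMO2 call was lost in the fits without wild-type replicates 1 or 3 and without knockout replicates 2 or 3 (limma adjusted p = 0.0904, 0.0788, 0.0586 and 0.0843). TAL1, SOX17 and SOX18, which act in early blood vessel and endothelial development, were under a mean of 10 normalized counts, and FLI1, the closest ETS relative of ERG, had from 3.02 to 48.9.

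Markers of neighbouring cell types were read beside the members. Cardiomyocyte genes summed to between 1344380 and 1690980 normalized counts in the wild type and between 1907520 and 3522360 in the knockout, with all 11 tested. MYL7 made up much of this gap, with means of 541523 and 1481020, and did not pass (limma adjusted p = 0.114). MYL7, MYH7, ACTN2, TNNC1, TTN and TNNT2 had positive fitted changes, and NKX2-5, MYH6, PLN, TNNI1 and RYR2 negative ones. Of the 11 genes 0 were called higher and 2 lower (18.2% against 12.8% of all tested genes). Blood cell genes were listed because blood cells share PECAM1 and other members with endothelium. They summed to between 121 and 228 in the wild type and between 143 and 161 in the knockout. Of 6 tested genes 0 were called by limma, edgeR or DESeq2, where 12.8%, 12% and 20.7% of all genes were. At an unadjusted p under 0.05 limma gave 0, against 27.5% of all genes. GP9, HBZ and HBG1 had 0 reads. The most abundant genes of this list were read in all 6 libraries. PTPRC had from 27.2 to 82.6 normalized counts, SPI1 from 20.4 to 57.1 and HBG2 from 1.91 to 75.5. Of 7 tested endocardial genes 1 rose (14.3% against 12.8% of all tested genes). It was HAPLN1, a matrix link protein (limma log2 change 1.35, standard error 0.23, adjusted p = 0.00918, but 0.0517 with equal totals and 0.0502 without knockout replicate 3). Stromal and fibroblast genes had 4 higher and 1 lower of 9 (55.6% against 12.8% of all tested genes), with TCF21, THY1, COL3A1 and DCN higher and COL1A2 lower. The COL3A1 call was lost without wild-type replicate 1 or knockout replicates 2 or 3 (limma adjusted p = 0.0578, 0.0524 and 0.0723), and the DCN call without wild-type replicates 1 or 3 or knockout replicates 2 or 3 (0.0558, 0.0685, 0.0853 and 0.112). The part of any of these cell types in the members' values was not tested.

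STK25 itself had 8119 ± 1168 normalized counts in the wild type and 3720 ± 251 in the knockout (SD, n = 3 per genotype; limma log2 change -1.12, standard error 0.19, adjusted p = 0.00903), with no overlap. Without wild-type replicate 1 its adjusted p was 0.0609. Its exons overlap those of FARP2 on the other strand. Depth ran from 22443904 to 53224112 reads per library. Scaling to equal totals moved the median of all fitted log2 changes to -0.27 and the share of calls that were higher from 46.8% to 27.4%. Nothing says that replicates came from separate thaws or edits, so p-values measure the spread between these cultures.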

How the data were processed

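The deposited table held 1 value per gene symbol and library, a signal that the authors' file calls normalized counts. Per the submitters' processing notes the tools were bcl2fastq 2.19, kallisto 0.44.0 and DESeq2 1.28.1, with GRCh38; their roles, the annotation and the use of strand are not given in the sources used here. Per the labels' protocols, RNA was column-purified with DNase digestion, and libraries were made with Clontech Ultra Low v4 and NexteraXT kits. Values were whole multiples of 1 step per library for 100% of genes (tolerance 0.01), which gave back reads. These may be rounded estimates, and no molecular identifiers are named, so intervals, and floors of 3 reads, describe counting error alone.

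Tests used limma 3.58.1 (R 4.3.3; lmFit, eBayes with a trend, two-sided, no covariate) on log2(value + 1) for the 15536 genes with a mean of at least 10, with Benjamini-Hochberg adjustment over all of them and a threshold of 0.05. The pseudocount pulls fold changes of low genes toward 0, but as differences of mean logs they can exceed those of count models where 1 library is near 0, as for TEK. Alternatives on recovered reads were edgeR 4.0.16 and DESeq2 1.42.0. All 3 were run on simulated counts with the same spread setting for every gene and no library standing apart. That run does not show how they behave on these libraries. Positions and lengths came from GENCODE 29 on GRCh38, and promoters from RefSeq (GRCh38.p14), where 7 of the 10 members matched. Named are the 10 members, STK25, list genes past the threshold or among the most abundant, and the 3 nearest genes of members with a mean of at least 50; not every such list gene is named. GP9, HBZ, HBG1, FLT1, NRP1 and the silent endothelial genes were named after their values were seen. The members and lists were chosen with earlier results of these data known.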

Additional observations from a re-analysis of the deposited data

How the results depend on the processing

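The count of 0 calls among the 5 tested members held under all 18 alternatives: pseudocounts of 0.1 or 10, other filters, 3 scalings, the block, eBayes without a trend, edgeR, DESeq2, leaving out each library, and leaving out wild-type replicate 2 and knockout replicate 1 together, the last chosen after seeing the data. KDR stayed higher and ENG lower under all of them, from 0.21 to 1.38 and from -1.02 to -0.12 on the log2 scale. PECAM1 changed sign with quantile normalization (0.14), with both libraries left out (0.12), and without wild-type replicate 2 (0.48), knockout replicate 2 (0.056) or knockout replicate 3 (0.24); leaving out 1 library it ran from -0.39 to 0.48. TEK changed sign without wild-type replicate 2 (-0.12) and reached 2.82 without wild-type replicate 3. EGFL7 changed sign with equal totals (-0.078) and without knockout replicate 1 (-0.063), and leaving out 1 library ran from -0.063 to 0.36. Over all genes the 1982 calls became 3210 with DESeq2, 4483 with both libraries left out and from 796 to 2181 leaving out 1 library; the cause was not tested. The replicate block gave 798 calls and put STK25 (-1.12) over the threshold, with an adjusted p of 0.0684. Without 1 library STK25 ran from -1.24 to -1.05. Same-numbered replicates did not deviate together (correlations of deviations -0.23, -0.40 and 0.17). The highest correlation was 0.45, between wild-type replicate 2 and knockout replicate 1. With 3 libraries per genotype this check cannot decide whether the numbers pair the libraries. NOS3, LMO2, HAPLN1, DCN and PLN were also over the threshold with the block, PLN with the highest adjusted p (0.272). CDH5, TIE1, ERG, VWF and PLVAP held at most 11 reads in any library, so differences of a few reads in them were not detectable at these depths.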

Other observations

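Other cell-type lists were read beside the endothelial genes. Of 9 tested mural cell genes 1 passed (limma, 11.1% against 12.8% of all tested genes); with wild-type replicate 2 and knockout replicate 1 left out 3 were higher and 1 lower, where 28.9% of all genes were called. MYH11, the smooth muscle myosin heavy chain, rose from 254 ± 88.5 normalized counts to 8493 ± 1163 (SD, n = 3 per genotype; limma log2 change 5.12, standard error 0.30, adjusted p = 0.000175), while the pericyte gene RGS5 had 9309 ± 679 and 8491 ± 453 (SD, n = 3 per genotype). Of 6 tested cardiac mesoderm genes 1 passed (16.7% against 12.8% of all tested genes). ISL1, a transcription factor of the second heart field, rose by 3.82 (SE 0.26, limma adjusted p = 0.000225). MIXL1 went the other way, at -0.76 (limma adjusted p = 0.107). It passed with equal totals (limma adjusted p = 0.0262, 12.9% of all genes called) and with the same 2 libraries left out (0.0327, 28.9%). TBX6 (1.03), MESP2 (0.18), HAND1 (0.14) and MESP1 (0.012) had positive fitted log2 changes and did not pass. Of 7 tested pluripotency genes 1 passed (14.3% against 12.8%). TDGF1, a Nodal co-receptor, rose by 2.63 (SE 0.24, limma adjusted p = 0.000656). The other tested genes of this list differed in direction. DNMT3B (-3.20), ZFP42 (-1.95) and L1TD1 (-1.27) had negative fitted log2 changes, and POU5F1 (2.09), DPPA4 (0.29) and LIN28A (0.12) positive ones. With equal totals 1 gene of the list was higher and 1 lower (12.9% of all genes were called), and DESeq2 called 3 (20.7%). Of 11 tested cardiomyocyte genes 0 rose and 2 fell (18.2% against 12.8%), NKX2-5 by 1.71 (limma adjusted p = 0.00135) and PLN by 0.76 (limma adjusted p = 0.0459); the PLN call held in 1 of 6 fits leaving out a library, that without knockout replicate 1, and its adjusted p reached 0.176 among these fits and 0.272 with the replicate block. DESeq2 called 8 of the 11 (20.7% of all genes), and with the same 2 libraries left out 4 were higher and 3 lower (28.9% of all genes).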
